A study of Mus musculus with 16 samples.

Results

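The cells described here are macrophages that had developed from transplanted bone marrow, had settled in the brain of irradiated mice, and were sampled with and without a systemic challenge with lipopolysaccharide (LPS), the endotoxin of Gram-negative bacteria. They were recognised by the CD451 mark in the sample names, which stands for the CD45.1 allele of the graft, and gave 8 of the 16 RNA libraries of the series. The other 8 libraries came from host microglia (CD452) of the same 8 animals. The recipients were C57BL/6J mice labelled WT, and all 8 had been irradiated with 950 cGy and given donor bone marrow, controls included. Mice 1 to 4 received 2.5 mg/kg LPS in a single intraperitoneal injection and were killed 12 h later. Mice 5 to 8 received no injection, so LPS and the injection itself cannot be told apart. The labels allow 3.5 or 9 months between transplantation and sorting without assigning a time to each library, while the text of the study gives 9 months for this challenge. Per the labels, 10000 cells were sorted for a library, and the gate of the methods was Ly6C/G-negative, CD11b+ and low for CD45.1. The study describes the graft of its sequenced unchallenged chimeras as congenic wild-type bone marrow.

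LPS is bound by CD14 and handed to TLR4 with its partner MD-2, and signalling through the adaptors MyD88 and TRIF releases NF-kappaB and activates interferon regulatory factors. The first wave of targets includes cytokines, chemokines and the inhibitors that shut the pathway off again, and interferon that is made in this wave drives a further set of genes. Intraperitoneal LPS also raises cytokines and glucocorticoids in the blood, so that macrophages of the brain meet several signals at the same time. Microglia under such a challenge are known to lose transcripts of their resting state, among them those of purine and chemokine receptors.

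The question for this comparison was which genes of engrafted cells changed with the challenge. The deposited values are raw counts of reads on the exons of each RefSeq gene. They are given here as CPM, the reads of a gene scaled to a common total of reads on genes, with TMM scaling, in the order of mice 1 to 4 with LPS and mice 5 to 8 without. CPM carry no correction for transcript length and are compared here only between libraries, not between genes. Each library came from its own mouse, so n = 4 on each side throughout. The engrafted libraries held 395283 to 960725 reads on genes, and 3 reads, the upper limit that a count of 0 allows, were worth 3.30 to 8.76 CPM with LPS and 3.04 to 5.56 CPM in controls. These limits cover counting error only, since reads were not collapsed to molecules as far as the sources used here state.

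Of the markers fixed for the 2 populations, Ms4a7 and Sall1 told graft from host. Ms4a7, a transmembrane protein of bone marrow-derived brain macrophages, stood at 196, 218, 321 and 347 CPM with LPS and at 548, 537, 583 and 532 CPM in controls, while the host means were 5.01 with LPS and 8.32 CPM. Sall1, a transcription factor of microglia, was listed at 9.90, 8.43, 12.8 and 2.92 CPM with LPS and at 19.3, 3.46, 21.8 and 25.9 CPM in controls, against host means of 103 with LPS and 318 CPM. Both markers separated graft from host in every mouse. Tmem119, also fixed for microglia, was at 708, 1038, 815 and 949 CPM in the graft with LPS, near the host mean of 964 CPM. Without LPS its means were 1193 CPM in the graft and 3098 CPM in the host. The first principal component held 65.0% of the variance of the 8 libraries and separated the LPS libraries (33.4 to 50.2) from the controls (-44.6 to -42.8). The second held 14.1% and separated LPS mouse 4 (-50.0) from the other 7 libraries (-2.12 to 17.6). That library was the shallowest, its hemoglobin and other red blood cell markers summed to 9937 CPM against 6422 CPM in control mouse 8 and 5.12 to 111 CPM in the other 6, and Apoe alone took 8.09% of its reads on genes. The hemoglobin entries come in pairs of near-equal value (Hba-a1 and Hba-a2 at 1909 and 1906 CPM in LPS mouse 4), so these sums may hold the same reads more than once. Differences of LPS mouse 4 from the other LPS libraries were 6.69 to 8.64 times counting noise (chi-square per degree of freedom), against 2.54 to 3.77 among those 3. Several results that rest on LPS mouse 4 are given with and without it below.

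LPS changed genes in both directions. Of 24411 genes in the table, 15382 had a read in an engrafted library and 7609 held enough reads to be tested. Counting genes with a change of over 1 on the log2 scale, in either direction, at an adjusted p under 0.05 (edgeR's quasi-likelihood test, Benjamini-Hochberg), 705 genes were called higher, which is 9.27% of those tested, and 744 were called lower, which is 9.78%. Together they made 1449 genes, or 19.0%. These shares are the background for the list counts below. The libraries of both groups did not overlap for 2671 genes, or 35.1% of those tested, and 1320 of the called genes were among these. The largest changes were rises. The log2 fold change was above 3 for 103 called genes and below -3 for 21, and beyond 5 for 19 and 1. The median log2 fold change was -0.01 over all genes tested, and the median size of a called change was 1.55 for rises and 1.38 for falls. Without LPS mouse 4 the test called 779 genes higher and 928 lower, and without both LPS mouse 4 and control mouse 8 it called 788 and 880. The balance of rises and falls depends on the scaling, with 622 and 852 by library totals.

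**Figure D1:**
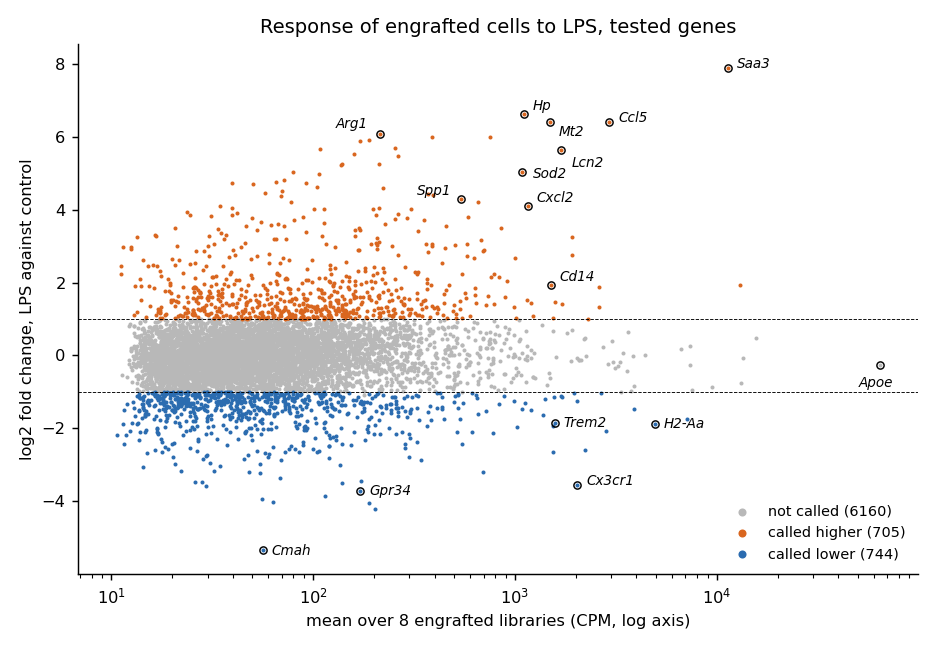
Log2 fold change (LPS against control) of the 7609 tested genes in engrafted cells, plotted against their mean level over the 8 libraries (CPM, log axis). Orange points are the 705 genes called higher, blue points the 744 called lower and grey points the rest, with the lines at a log2 fold change of 1 and -1. Named genes of the text are marked, and the rises reach further from 0 than the falls.

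The largest rise was that of Saa3, which encodes serum amyloid A3, an acute-phase protein made outside the liver by macrophages among other cells. Saa3 (NM_011315, chr7:53967368-53971046, minus strand) stood at 29020.2, 23556, 19348 and 18664 CPM with LPS and at 60.8, 104, 117 and 92.7 CPM in controls, so that no library of one group came near the other. Its log2 fold change was 7.88 ± 0.27 (SE; adjusted p = 9.16e-14), and it took 1.62 to 2.75% of the reads on genes in the LPS libraries. Hp, the gene of the hemoglobin-binding protein haptoglobin, went from 10.1, 13.9, 26.8 and 29.7 CPM in controls to 3925, 2525, 1251 and 1062 CPM (6.63 ± 0.43, adjusted p = 4.78e-10). Lcn2 encodes lipocalin 2, which withholds iron from bacteria by binding their siderophores, and stood at 4302, 3888, 2337 and 2699.6 CPM with LPS against 29.4, 76.2, 126 and 27.8 CPM (5.63 ± 0.39, adjusted p = 9.21e-10). In each of these genes the groups lay far apart. Slpi, a secreted inhibitor of leukocyte proteases, was at 552, 442, 313 and 189.7 CPM with LPS and at 1.01, 1.73, 5.03 and 7.41 CPM without (5.92 ± 0.37, adjusted p = 3.68e-10). Chil1, a chitinase-like secreted protein, was at 2077, 1575, 1061 and 1217 CPM against 21.3, 20.8, 28.5 and 9.27 CPM (6.00 ± 0.30, adjusted p = 1.54e-11). F10, the gene of coagulation factor X, rose by 5.52 ± 0.33 on the log2 scale, to 425, 394, 255 and 181 CPM.

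Of the 20 tested members of a list of acute-phase and granule proteins, 13 rose and 2 fell by edgeR, with a median log2 fold change of 1.97. Lower members numbered 1 by DESeq2 and 0 by limma. Besides those above, the risers were S100a4, S100a6, Chil3, Prdx5, Wfdc17, C3, Thbs1 and Plac8. The rise of C3 (1.27 ± 0.35), the central complement protein, was 2.06 without control mouse 5. The members that fell were Camp and Lyz1 (-1.11 ± 0.36), a lysozyme, and Cp (ceruloplasmin, 0.81 ± 0.21), S100a8, S100a9, Lyz2 and Ngp were not called. Without LPS mouse 4 Cp was called higher by edgeR (log2 fold change 1.01, adjusted p = 9.95e-06). The call of Lyz1 was lost without LPS mouse 1, 2 or 3 or control mouse 6 or 7 (log2 fold changes of -0.93, -0.89, -1.01, -0.97 and -0.91). By limma the log2 fold change of Lyz1 was -0.92, short of the threshold. Camp, which encodes cathelicidin, fell by 1.69 ± 0.58 on the log2 scale, and its groups overlapped, with 27.5, 0, 10.2 and 37.9 CPM with LPS and 33.5, 29.4, 156 and 24.1 CPM without. Without control mouse 7 its log2 fold change was -0.72 (adjusted p = 0.290), and the call was also lost without LPS mouse 2 or 3 (adjusted p = 0.0672 and 0.0910). Camp was not called by DESeq2 or limma either (adjusted p = 0.263 and 0.0649). S100a9 was at 145, 2.41, 147 and 172 CPM with LPS and 113, 253, 526 and 76.0 CPM in controls and did not pass the test (log2 fold change -1.07 ± 0.57, adjusted p = 0.146). Without LPS mouse 4 and control mouse 8 it was called lower by edgeR (-1.54, adjusted p = 0.0258).

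The receptor for LPS fell, while Cd14, which works with it, rose. Tlr4 fell by 1.19 ± 0.21 on the log2 scale (adjusted p = 1.66e-04), from 92.2, 91.8, 78.8 and 85.3 CPM to 36.3, 25.3, 48.6 and 37.9 CPM. Cd14, which presents LPS to TLR4, rose to 2148, 2561, 1676 and 3155 CPM from 621, 577, 637 and 641 CPM (1.93 ± 0.20, adjusted p = 2.11e-07). Fpr1 and Fpr2, receptors for formylated bacterial peptides, rose by 3.28 ± 0.40 and 4.74 ± 0.28 on the log2 scale, Fpr2 from 3.04, 1.73, 5.03 and 7.41 CPM to 208, 190.3, 207 and 117 CPM. Msr1, a scavenger receptor for modified lipoproteins and bacterial surfaces, went from 78.1, 67.5, 67.0 and 89.0 CPM to 787, 647, 498 and 686 CPM (3.06 ± 0.20, adjusted p = 6.04e-10). Tlr2, the receptor for bacterial lipopeptides, was at 652, 961, 526 and 391 CPM with LPS and 328, 327, 387 and 400.3 CPM without, and its log2 fold change of 0.81 ± 0.22 did not reach the threshold of 1. Without LPS mouse 4 and control mouse 8 it was 1.03 and was called. Over the list of bacterial pattern recognition genes, 9 of 25 tested members rose and 2 fell (median 0.60).

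Among C-type lectin receptors, which bind glycans and debris, 6 of 15 tested members rose and 4 fell (median 0.17). Clec4e (Mincle) and Clec4d, neighbouring genes whose products pair to recognise mycobacterial glycolipid, rose most. Clec4e was at 415, 477, 301 and 161 CPM with LPS and at 2.03, 0, 3.35 and 7.41 CPM without (5.88 ± 0.38, adjusted p = 5.04e-10). Clec4d was at 281, 314, 235 and 248 CPM against 4.05, 1.73, 3.35 and 9.27 CPM (5.21 ± 0.26, adjusted p = 1.54e-11), and Clec4a1 rose by 3.70 ± 0.24. The falls included the beta-glucan receptor Clec7a (Dectin-1), at 22, 8.43, 10.2 and 17.5 CPM with LPS and 129, 129.9, 90.5 and 145 CPM without (-2.88 ± 0.26, adjusted p = 3.36e-08), and Clec12a, an inhibitory receptor that marked the graft, which went from 494, 499, 563 and 537 CPM to 75.9, 72.3, 71.6 and 75.9 CPM (-2.78 ± 0.18). The galactose receptor Mgl2 fell from 25.3, 97.0, 30.2 and 63.0 CPM to 2.20, 2.41, 1.28 and 2.92 CPM, which is 3 reads or fewer in each LPS library, and was at least 11-fold lower when set against 3 reads over each library. Trem1, a receptor that amplifies myeloid activation, showed the opposite course and reached 112, 138, 70.4 and 78.8 CPM from 2.03, 0, 1.68 and 0 CPM. With all controls at 3 reads or fewer, this was at least 21.2-fold higher.

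Paired immunoglobulin-like and Fc receptors split as well, with 9 of 21 tested members higher and 5 lower (median 0.55). Pirb, an inhibitory receptor for MHC class I, stood at 1054, 948, 1043 and 1089 CPM with LPS and 65.9, 166, 95.5 and 167 CPM without (3.05 ± 0.25, adjusted p = 1.06e-08). Cd300lf, another receptor with inhibitory motifs, rose to 430.1, 542, 383 and 368 CPM from 13.2, 20.8, 15.1 and 11.1 CPM (4.61 ± 0.23). Both showed groups without overlap. Trem2, which senses lipids through the adaptor Tyrobp, fell by 1.86 ± 0.20 (adjusted p = 4.69e-07), from 2450.1, 2384, 2615 and 2419 CPM to 488, 597, 678 and 960.2 CPM, while Tyrobp itself was at 2157, 2193, 1725 and 2046 CPM with LPS and 1759.8, 2310.0, 2456 and 2272 CPM in controls and did not pass the test. Siglech, a sialic acid-binding receptor of microglia and plasmacytoid dendritic cells, fell by 2.14 ± 0.19 (adjusted p = 2.66e-08).

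Most tested genes of the NF-kappaB list rose. Of 19 tested members of the list of NF-kappaB subunits and inhibitors, 12 rose and 0 fell, with a median of 1.22. Lower members numbered 3 at an unadjusted p under 0.05 whatever the fold, 0 by DESeq2 and 0 by limma. The inhibitors Nfkbid and Nfkbiz had log2 fold changes of -0.68 ± 0.19 and -0.43 ± 0.20, short of the threshold. Tnfaip3 (A20), a ubiquitin editor that ends TNF and TLR signals, was at 425, 521, 243 and 178 CPM with LPS and 86.2, 41.6, 70.4 and 44.5 CPM without (2.42 ± 0.29, adjusted p = 2.19e-06). Bcl3, a nuclear cofactor of the p50 and p52 subunits, was at 292, 367, 152 and 187 CPM against 29.4, 60.6, 35.2 and 37.1 CPM (2.57 ± 0.27). Nfkbia, which encodes the inhibitor IkappaB-alpha, was at 4295, 4709.5, 3429 and 2463 CPM against 1490.1, 1337, 1584 and 1501 CPM (1.33 ± 0.20, adjusted p = 2.28e-05). The groups did not overlap in any of these. Relb and Nfkb2, the subunits of the slower branch of the pathway, rose too (1.71 ± 0.29 and 1.17 ± 0.27; Nfkb2 was at 0.98 and 0.94, below the threshold, without LPS mouse 1 or 2), whereas Rela, the main activating subunit, was at 185, 246, 169 and 169 CPM with LPS and 166, 158, 134 and 178 CPM in controls (log2 fold change 0.27 ± 0.17, adjusted p = 0.227).

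Interleukin 1 genes and their antagonists rose side by side. Il1b went from 61.8, 62.3, 48.6 and 89.0 CPM to 599.5, 526, 315 and 397 CPM (2.77 ± 0.23, adjusted p = 1.56e-08). Il1rn, the gene of the receptor antagonist that blocks interleukin 1, went from 8.11, 3.46, 8.38 and 7.41 CPM to 868, 661, 301 and 169 CPM (5.68 ± 0.45, adjusted p = 6.35e-09), and mice 1 and 2 lay above mice 3 and 4. The summed chemokine list had this split too, at 19349, 18530, 12403 and 11869 CPM in the LPS libraries of the graft. In the host of these mice it summed to 17189, 19473, 8812 and 8094 CPM. The summed complement list of the graft did not have the split (34085, 37435, 36792 and 57684 CPM). Il1r2, a decoy receptor that binds interleukin 1 without signalling, went from 1.01, 6.93, 1.68 and 0 CPM to 155, 136, 130.5 and 143 CPM (4.81 ± 0.30, adjusted p = 4.01e-10). Antagonist and decoy thus had larger log2 fold changes than the cytokine, though the 3 differences between genes were not tested. Tnf was at 440.0, 613, 289 and 271 CPM with LPS and 151, 116, 168 and 133 CPM without (1.49 ± 0.24, adjusted p = 4.87e-05), and Tnfsf9, the ligand of the costimulatory receptor 4-1BB, rose by 2.79 ± 0.34. Spp1 (osteopontin), a secreted ligand of integrins and CD44, stood at 728, 825, 1081 and 1474 CPM with LPS and 35.5, 46.8, 35.2 and 83.4 CPM without (4.30 ± 0.29, adjusted p = 6.64e-10).

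Over the cytokine list 7 of 15 tested members rose and 3 fell (median 0.74). The falls were growth factors and a lymphocyte cytokine. Igf1 dropped from 155, 144, 136 and 126 CPM to 17.6, 12.0, 32.0 and 29.2 CPM (-2.55 ± 0.24, adjusted p = 6.00e-08), Pdgfb, a mitogen of vascular mural cells, from 126, 126, 178 and 163 CPM to 18.7, 27.7, 42.2 and 67.1 CPM (-1.98 ± 0.26), and Il15, which sustains natural killer cells, from 45.6, 53.7, 35.2 and 53.7 CPM to 7.70, 8.43, 5.12 and 5.84 CPM (-2.34 ± 0.28). Its presenting receptor Il15ra rose at the same time, from 5.07, 15.6, 5.03 and 14.8 CPM to 221, 242, 189 and 119.7 CPM (4.01 ± 0.29, adjusted p = 1.68e-09). Of the 28 list members, 13 were too low to be tested, among them Il6, Il10 and Il12b. Il12b was listed at 17.6, 13.2, 8.96 and 0 CPM with LPS and 0, 1.73, 6.70 and 7.41 CPM without, which is few reads in each library.

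Chemokines for neutrophils, monocytes and T cells rose in engrafted cells. On that list 12 of 18 tested members rose and 1 fell, with a median of 1.92, the second highest of the 28 lists. Ccl5, which attracts T cells and monocytes, had the third largest rise by the rule for named genes (NM_013653, chr11:83339281-83344020, minus strand), with 8536, 6146, 4739.9 and 3750.2 CPM with LPS and 47.6, 41.6, 92.2 and 81.5 CPM without (6.41 ± 0.32, adjusted p = 1.54e-11). Cxcl2, a ligand of the neutrophil receptor CXCR2, was at 2352, 2913, 1339 and 2151 CPM against 90.2, 83.1, 137 and 189 CPM (4.11 ± 0.28, adjusted p = 8.17e-10). Cxcl3, a further CXCR2 ligand, was at 68.2, 51.8, 17.9 and 49.6 CPM with LPS and at 0 in 3 of 4 controls (0, 0, 0 and 1.85 CPM). All 3 had groups without overlap. Ccl6, a ligand of CCR1, went from 62.8, 60.6, 63.7 and 109 CPM to 392, 236, 319 and 546 CPM (2.28 ± 0.25, adjusted p = 5.60e-07). Pf4, a chemokine of platelets and macrophages, fell by 1.32 ± 0.22 (adjusted p = 9.03e-05). Ccl3 and Ccl12 did not pass the threshold of 1, with 2439, 3115, 1835 and 2133 CPM against 1235, 1565, 1433 and 1566 CPM for Ccl3 (0.71 ± 0.19) and 330.0, 355, 477 and 359 CPM against 488, 542, 597 and 621 CPM for Ccl12 (-0.56 ± 0.18).

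Receptors for chemokines and cytokines went in both directions (8 of 28 tested members higher, 6 lower, median -0.14). Cx3cr1, the receptor for the neuronal chemokine fractalkine, fell from 3630.0, 3796, 3978 and 3571 CPM to 235, 244, 429.8 and 356 CPM (NM_009987, chr9:119957801-119977414, minus strand; log2 fold change -3.56 ± 0.22, adjusted p = 2.54e-10), so that no LPS library came near a control. In unchallenged mice the graft and the host lay at like levels, with host controls at 4046, 4091, 3897 and 3566 CPM. Both chains of the receptor for TGF-beta, a cytokine that microglia depend on, fell. Tgfbr2 went from 392, 402, 422 and 465 CPM to 81.4, 87.9, 99.8 and 105 CPM (-2.15 ± 0.18, adjusted p = 1.17e-08), and Tgfbr1 fell by 1.46 ± 0.18. Ccr2, which guides monocytes out of the bone marrow, fell from 85.1, 194, 124 and 234 CPM to 39.6, 31.3, 61.4 and 52.5 CPM (-1.73 ± 0.28, adjusted p = 5.52e-05). Csf1r, the receptor on which microglia and macrophages rely for survival, was at 2403, 3056, 2884 and 2796 CPM with LPS and 4947, 4949, 5176 and 4958 CPM without, and its log2 fold change of -0.85 ± 0.16 did not reach the threshold. Il18rap, the accessory chain of the interleukin 18 receptor, rose to 40.7, 24.1, 28.1 and 37.9 CPM from 2.03, 0, 0 and 0 CPM.

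**Figure D2:**
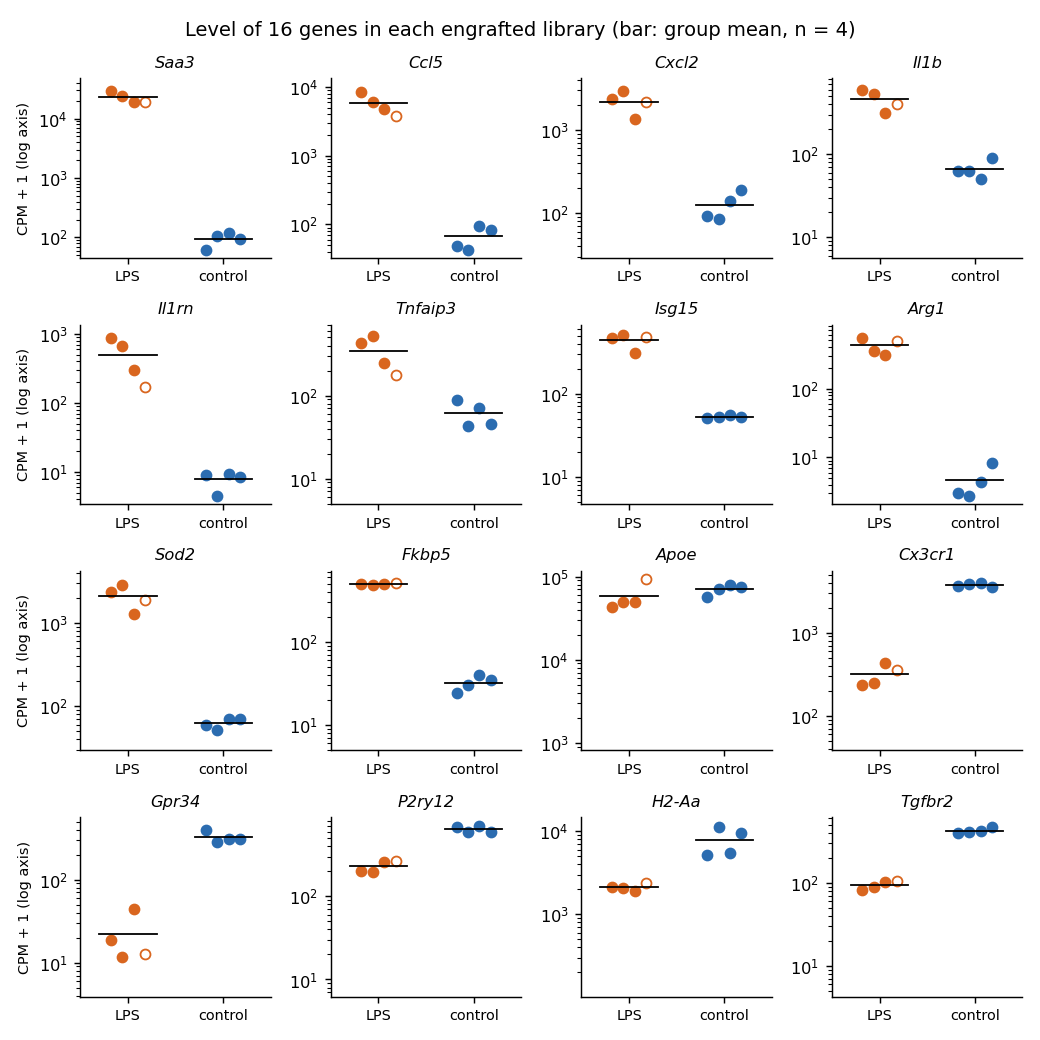
CPM (log axis, with 1 added) of 16 genes in each engrafted library, orange for the 4 LPS mice and blue for the 4 controls, with a bar at the group mean. LPS mouse 4 is drawn as an open circle. In 15 of the genes the groups do not overlap, and Apoe is shown as a gene without a call.

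Promoter sequences of 4 of these genes show where short motifs of the factors named above lie. Each line gives the 250 bases before the start of the deposited transcript (NCBI37, mm9), 5′ to 3′ on the strand of the gene, and capitals mark every match, on either strand, to GGNNTTTCC (a kappaB-like element, bound by NF-kappaB), GAAANNGAA (the interferon-stimulated response element, ISRE), TTNNGCAA (C/EBP) or ACANNNTGT (glucocorticoid receptor). All 4 genes lie on the minus strand, and the annotation used here has no exon in these windows. Saa3 is shown as the largest rise, Ccl5 as the largest rise of a chemokine, Nfkbia as a feedback inhibitor and Isg15 as an interferon target.
Saa3 (chr7:53971047-53971296, minus strand): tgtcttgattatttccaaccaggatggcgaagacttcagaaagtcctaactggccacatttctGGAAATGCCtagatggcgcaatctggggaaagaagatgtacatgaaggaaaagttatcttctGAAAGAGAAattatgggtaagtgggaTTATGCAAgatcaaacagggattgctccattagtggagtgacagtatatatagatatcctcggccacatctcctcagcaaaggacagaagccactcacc
Ccl5 (chr11:83344021-83344270, minus strand): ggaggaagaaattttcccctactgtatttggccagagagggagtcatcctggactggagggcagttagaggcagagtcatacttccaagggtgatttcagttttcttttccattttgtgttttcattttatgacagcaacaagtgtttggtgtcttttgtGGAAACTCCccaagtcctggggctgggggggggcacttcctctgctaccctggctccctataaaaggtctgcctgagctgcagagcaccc
Nfkbia (chr12:56593635-56593884, minus strand): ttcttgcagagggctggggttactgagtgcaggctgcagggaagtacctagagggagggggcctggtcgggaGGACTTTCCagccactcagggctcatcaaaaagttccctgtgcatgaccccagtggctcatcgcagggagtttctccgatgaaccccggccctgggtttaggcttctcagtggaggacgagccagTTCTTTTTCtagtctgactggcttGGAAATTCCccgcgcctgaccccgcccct
Isg15 (chr4:155574928-155575177, minus strand): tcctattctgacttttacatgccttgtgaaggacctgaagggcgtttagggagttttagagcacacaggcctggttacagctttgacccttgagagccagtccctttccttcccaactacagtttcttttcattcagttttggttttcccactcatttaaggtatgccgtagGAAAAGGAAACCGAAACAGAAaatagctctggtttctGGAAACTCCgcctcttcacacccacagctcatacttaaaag
In Saa3 a kappaB match ends 179 bases before the start, an ISRE match 117 and a C/EBP match 92 bases before it. Ccl5 has a kappaB match 90 to 82 bases before its start. Nfkbia has 2 kappaB matches, at 178 to 170 and at 29 to 21 bases, and an ISRE match at 53 to 45. In Isg15 3 overlapping ISRE matches lie between 78 and 58 bases before the start and a kappaB match at 41 to 33. A match is a description of letters and not a site shown to be bound.

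Over the 7609 tested genes, 5.7% of these windows hold the kappaB letters, 6.78% the ISRE letters, 7.45% the C/EBP letters and 3.17% the glucocorticoid receptor letters. Among the 705 genes called higher the shares were 8.65%, 10.5%, 9.5% and 4.54%, and among the 744 called lower 5.65%, 6.59%, 9.95% and 3.23%. The lists differed more. The kappaB letters were present in 8 of 19 promoters (42.1%) of the NF-kappaB list and in 8 of 18 (44.4%) of the chemokines, the ISRE letters in 17 of 39 (43.6%) of the interferon-stimulated genes, and the C/EBP letters in 7 of 20 (35%) of the acute-phase and granule proteins. In the glucocorticoid response list 2 of 23 windows (8.7%) held the letters for that receptor. A kappaB and an ISRE match overlapped in 4 promoters. No test was made of these shares, and several of the lists were compiled from targets of the factors concerned.

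Interferon-stimulated genes rose in part. Of 39 tested members 18 rose and 0 fell by edgeR, and the median was 0.78. Lower members numbered 2 at an unadjusted p under 0.05 whatever the fold, 0 by DESeq2 and 0 by limma. Isg15, a ubiquitin-like modifier, was at 471, 499.7, 307 and 484 CPM with LPS and 49.7, 51.9, 53.6 and 51.9 CPM without (NM_015783, chr4:155573533-155574927, minus strand; 3.01 ± 0.20, adjusted p = 6.63e-10). Irf7, the regulator that amplifies type I interferon, was at 1353, 1286, 770.1 and 949 CPM against 167, 132, 186 and 187 CPM (2.67 ± 0.21, adjusted p = 7.94e-09). Oasl1 and Zbp1, a repressor of Irf7 translation and a sensor of Z-form nucleic acid, rose by 3.03 ± 0.37 and 2.88 ± 0.24. These genes did not overlap between groups. Other members stayed short of the threshold. Ly6e was at 4714, 4865, 4107 and 3969 CPM with LPS and 2439, 3226, 2749 and 2925 CPM without (0.64 ± 0.17), and Bst2, the tetherin that holds budding virus, was at 923, 1068, 934 and 2002 CPM and 1469, 1626, 1892 and 1911 CPM, with a log2 fold change of -0.49 ± 0.22 (adjusted p = 0.0894). Without LPS mouse 4, 20 members were called higher.

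Of the GTPases linked to interferon gamma, which attack vacuoles of pathogens, 5 of 11 tested members rose and 2 fell (median 0.76). Gbp2 went from 11.2, 12.1, 11.7 and 7.41 CPM to 197, 113, 101 and 58.4 CPM (3.19 ± 0.32, adjusted p = 1.56e-07) and Gbp9 rose by 1.32 ± 0.21. Without LPS mouse 1 the number of risers was 2, and leaving out each other library gave 3 to 5. Iigp1 fell by 1.37 ± 0.36 on the log2 scale with groups that overlapped (26.4, 10.8, 15.4 and 2.92 CPM with LPS, 43.6, 72.7, 40.2 and 20.4 CPM without).

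Most genes of MHC class II presentation fell. Of 13 tested members 8 fell and 2 rose, with a median of -1.46, the lowest of the 28 lists. The chains H2-Aa and H2-Eb1 fell from 5091, 11114, 5489.6 and 9432 CPM to 2108, 2047, 1874 and 2361 CPM (-1.89 ± 0.23, adjusted p = 1.71e-06) and from 2858, 6405, 3765 and 5267 CPM to 760.2, 1098, 975 and 1509 CPM (-2.08 ± 0.25, adjusted p = 1.57e-06). Controls 6 and 8 lay highest for both chains, so that the control group varied more than the LPS group, yet no library of one group reached the other. Ciita, the transactivator on which class II transcription depends, was at 4.40, 1.2, 2.56 and 2.92 CPM with LPS and 17.2, 72.7, 18.4 and 42.6 CPM without (-2.79 ± 0.45, adjusted p = 5.32e-05). The risers act elsewhere in presentation. Ifi30, a lysosomal thiol reductase, rose by 1.58 ± 0.18, and Cd40, the receptor for T cell help, by 1.55 ± 0.27. MHC class I genes moved less, with 1 of 18 tested members higher, 0 lower (edgeR; 0 at an unadjusted p under 0.05 whatever the fold, 0 by DESeq2 and 0 by limma) and a median of 0.46. That member was H2-T22 (1.25 ± 0.21), and the share called higher over all genes tested was 9.27%. H2-K1 was at 2597, 2818, 1735 and 3099 CPM with LPS and 1802, 2033, 1807 and 1755 CPM without (log2 fold change 0.46 ± 0.19, adjusted p = 0.0546). Since class I and class II genes have near-identical relatives, reads that map to more than 1 of them were not counted.

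Complement genes differed in their response. Cfb, factor B of the alternative pathway, went from 9.12, 5.19, 13.4 and 7.41 CPM to 727, 579, 416 and 362 CPM (5.48 ± 0.29, adjusted p = 3.18e-11), and Cfp (properdin), which stabilises the same convertase, from 17.2, 43.3, 28.5 and 44.5 CPM to 509, 414, 306 and 464 CPM (3.60 ± 0.26, adjusted p = 1.35e-09). C5ar1, the receptor for the anaphylatoxin C5a, was at 75.9, 67.4, 74.2 and 75.9 CPM against 10.1, 5.19, 6.70 and 5.56 CPM (2.90 ± 0.26), while its relative C5ar2 fell by 1.39 ± 0.32. C1qb and C1qc, chains of the classical pathway's recognition protein, did not pass the test. C1qb was at 13879.7, 15592, 15114 and 28295 CPM with LPS and 11915, 13659, 13197 and 13496 CPM without (log2 fold change 0.48 ± 0.20, adjusted p = 0.0708), with LPS mouse 4 far above the rest. On the list 6 of 14 tested members rose and 2 fell (median 0.42).

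Genes that glucocorticoids are known to raise rose broadly, 14 of 23 tested members, with 2 lower and a median of 1.68. Mt2 (metallothionein 2), a metal-binding protein that also answers to metal and to inflammation, was at 3448, 4036, 2235 and 2040.0 CPM with LPS and 30.4, 38.1, 30.2 and 27.8 CPM without (NM_008630, chr8:96696518-96697467, plus strand; 6.41 ± 0.27, adjusted p = 3.17e-12). Map3k6, a stress kinase, was at 305, 284, 242 and 259.7 CPM against 6.08, 3.46, 6.70 and 0 CPM (5.24 ± 0.28, adjusted p = 3.10e-11). Il1r2, described above, also belongs to this list. Other members that rose were Fkbp5 (3.89 ± 0.20), a chaperone that damps the glucocorticoid receptor, Zbtb16 (4.03 ± 0.45), Klf9 (3.79 ± 0.24) and Ddit4 (3.86 ± 0.34), an inhibitor of mTORC1. These were named for their values and for being textbook targets of the receptor. Fkbp5 went from 23.3, 29.4, 38.6 and 33.4 CPM to 491, 486, 494 and 508 CPM. Tsc22d3 (GILZ) lay just below the threshold, with 473, 537, 539 and 838 CPM with LPS, 267, 336, 269.9 and 319 CPM without and a log2 fold change of 0.99 ± 0.20 (adjusted p = 5.38e-04), and Sgk1 followed with 0.91 ± 0.20. Sesn1, a stress-responsive inhibitor of growth signalling, fell by 1.34 ± 0.17 (adjusted p = 3.75e-06).

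Arg1, Acod1 and Ass1 led the list of arginine, itaconate and tryptophan metabolism. Arg1, which splits arginine into ornithine and urea, was at 539, 353, 311 and 490.3 CPM with LPS and 2.03, 1.73, 3.35 and 7.41 CPM without (6.08 ± 0.30, adjusted p = 1.54e-11). Acod1 (Irg1), which makes itaconate from a Krebs cycle intermediate, was at 282, 313, 156 and 90.5 CPM against 4.05, 3.46, 1.68 and 7.41 CPM (4.97 ± 0.38, adjusted p = 4.09e-09), and Ass1, which rebuilds arginine from citrulline, rose by 3.57 ± 0.29. Nos2, which competes for arginine to make nitric oxide, was too low to be tested. The list had 5 of 10 tested members higher and 2 lower (median 0.81).

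Transcripts for sugar breakdown rose at several steps. Of 18 tested glycolysis genes 10 were higher and 0 lower by edgeR, with a median of 1.30. Lower members numbered 3 at an unadjusted p under 0.05 whatever the fold, 0 by DESeq2 and 0 by limma. Pfkfb3, whose product makes the allosteric activator of phosphofructokinase, was at 704, 808, 535 and 388 CPM with LPS and 49.7, 46.8, 67.0 and 55.6 CPM without (3.41 ± 0.24, adjusted p = 1.14e-09). Pkm and Ldha, at the end of the pathway, went from 238, 215, 317 and 324 CPM to 1495, 1409, 1196 and 1127 CPM (2.24 ± 0.19) and from 80.1, 121, 90.5 and 139 CPM to 586, 512, 457 and 584 CPM (2.29 ± 0.20). The other members called higher were Slc2a1, Pfkl, Pfkp, Aldoa, Tpi1, Eno1 and Slc16a3. Hk3, Gpi1 and Pfkfb4 had log2 fold changes of -0.62 ± 0.17, 0.59 ± 0.17 and -0.50 ± 0.16, short of the threshold. Oxidative phosphorylation subunits moved less, with 3 of 46 tested members higher (Cox5a, Cyc1 and Cox5b, 1.21 ± 0.27, 1.08 ± 0.19 and 1.06 ± 0.21), 0 lower (edgeR; 0 at an unadjusted p under 0.05 whatever the fold, 0 by DESeq2 and 0 by limma) and a median of 0.29, and in all 3 LPS mouse 4 lay highest. Without it the 3 log2 fold changes were 0.77, 0.93 and 0.85 and 1 other member was called, and leaving out each library in turn gave 1 to 6. The share called higher over all genes tested was 9.27%.

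Antioxidant and iron genes rose in 11 of 26 tested members and fell in 2 (median 0.73). Sod2, the mitochondrial superoxide dismutase, went from 58.8, 50.2, 68.7 and 68.6 CPM to 2331, 2868, 1297 and 1917 CPM (5.03 ± 0.26, adjusted p = 2.04e-11). Fth1, the heavy chain of the iron store ferritin, was at 22568, 21941, 15107 and 22668 CPM against 4758, 5846, 5293 and 5589.7 CPM (1.93 ± 0.18, adjusted p = 4.62e-08). Slc39a14, an importer of iron and zinc, rose by 2.45 ± 0.30, and Slc40a1 (ferroportin), the exporter of iron, fell from 121, 69.3, 98.9 and 87.1 CPM to 15.4, 10.8, 17.9 and 2.92 CPM (-2.63 ± 0.27, adjusted p = 3.01e-07). The transcripts for import and storage thus went up and the one for export went down. Cyba, a core subunit of the NADPH oxidase, was at 1779.9, 1852, 1765 and 2206 CPM with LPS and 931, 1243, 1348 and 1281 CPM without, below the threshold (0.66 ± 0.18).

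Cholesterol genes were called in 5 of 15 tested members, all of them higher (edgeR; lower members numbered 2 at an unadjusted p under 0.05 whatever the fold, 1 by DESeq2 and 0 by limma; median 0.29), and 16 further members were too low to test. They were Nr1h3 (LXR-alpha), the sterol-sensing nuclear receptor (2.99 ± 0.38), the desaturase gene Scd2 (2.07 ± 0.21), Mvd of the mevalonate pathway (1.86 ± 0.29), Apoc2 and Ch25h. Apoe, the main lipid carrier of the brain, was at 43396, 49021, 49132 and 93350.2 CPM with LPS and 56214, 71086, 80339 and 74173 CPM in controls and did not pass the test (-0.27 ± 0.21, adjusted p = 0.339). The LPS libraries of mice 1 to 3 lay below the controls and that of mouse 4 above them. Without mouse 4 the log2 fold change was -0.56.

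Transcripts of the resting microglial state fell in engrafted cells. Of 32 tested members of the list of homeostatic microglia genes 22 fell and 0 rose by edgeR, against 9.78% and 9.27% of all genes, and the median was -1.42. Higher members numbered 0 at an unadjusted p under 0.05 whatever the fold, 0 by DESeq2 and 0 by limma. Gpr34, a lysophosphatidylserine receptor, went from 390.3, 284, 303 and 309.5 CPM to 17.6, 10.8, 43.5 and 11.7 CPM (-3.72 ± 0.29, adjusted p = 3.91e-09). Cx3cr1 has been described above, and Olfml3, a secreted matrix protein, went from 902, 873, 1066 and 828 CPM to 134, 141, 161 and 248 CPM (-2.43 ± 0.21, adjusted p = 2.40e-08). P2ry12, the ADP receptor that guides microglial processes, is named as the best known member and fell from 689, 587, 696 and 593 CPM to 202, 195, 258 and 263 CPM (-1.48 ± 0.18, adjusted p = 2.40e-06). Aif1 (IBA1), the actin-binding protein used to stain microglia, fell by 2.12 ± 0.20 (adjusted p = 7.28e-08). Tmem119 did not pass the test, with 708, 1038, 815 and 949 CPM with LPS and 1236, 1013, 1403 and 1119 CPM without (log2 fold change -0.45 ± 0.18, adjusted p = 0.0573). Cst3, which encodes the protease inhibitor cystatin C, stayed short of the threshold at -0.75 ± 0.17. In bulk samples, fewer cells of a type and less RNA per cell cannot be told apart, so a mixture that shifted toward cells without these transcripts would give the same counts as a fall in each cell.

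Outside this list, and among genes of at least 50 CPM on average whose groups did not overlap, Cmah and Gm5086 had the largest falls. Cmah, which encodes the hydroxylase that turns one common sialic acid into another, had no read in any LPS library and stood at 126, 111, 117 and 96.4 CPM in controls (NM_001111110, chr13:24419273-24569158, plus strand), at least 23.1-fold lower when 3 reads are allowed in each LPS library. Gm5086, a predicted gene, was at 1.10, 2.41, 5.12 and 17.5 CPM with LPS and 117, 135, 95.5 and 132 CPM without (-4.01 ± 0.33, adjusted p = 1.06e-08). Hacd4 and Hpgd, a lipid-chain elongating enzyme and the enzyme that inactivates prostaglandins, fell by 3.95 ± 0.28 and 3.46 ± 0.22. Hpgd was at 19.8, 22.9, 40.9 and 20.4 CPM with LPS and 306, 268, 370.4 and 329.9 CPM without. Ramp1, the partner of the receptor for the neuropeptide CGRP, went from 222, 284, 290.0 and 234 CPM to 9.90, 22.9, 25.6 and 26.3 CPM (-3.49 ± 0.23), and Nrp1 (neuropilin 1), a coreceptor for semaphorins and VEGF, from 656, 596, 580.0 and 595 CPM to 57.2, 40.9, 143 and 84.6 CPM (-2.86 ± 0.28). Hspa1b, an inducible heat-shock protein with a near-identical copy, Hspa1a, was at 121, 50.6, 38.4 and 365 CPM with LPS and 1887, 845, 1245 and 1032 CPM without (-3.21 ± 0.48, adjusted p = 2.32e-05), and its log2 fold change was -4.09 without LPS mouse 4. Cd36, a scavenger receptor for fatty acids, had 3 reads or fewer in every LPS library and was at least 11.7-fold lower. Bank1, a B cell adaptor, was at 40.5, 48.5, 33.5 and 46.3 CPM in controls and 2.20, 1.2, 2.56 and 2.92 CPM with LPS.

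**Figure D3:**
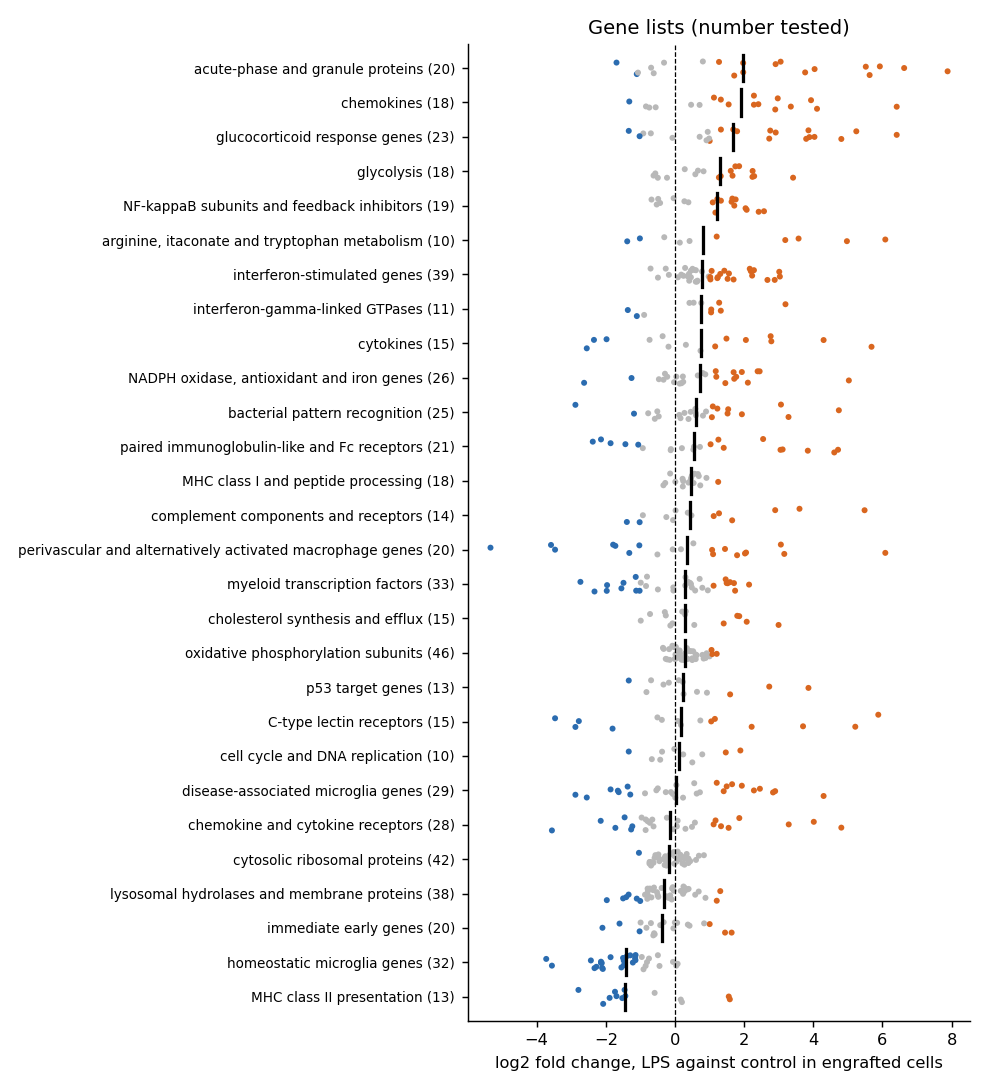
Log2 fold change (LPS against control in engrafted cells) of each tested member of the 28 gene lists, 1 row per list, with orange for members called higher, blue for members called lower, grey for the rest and a black bar at the median. Rows are ordered by the median, from acute-phase and granule proteins (1.97) to MHC class II presentation (-1.46), and the dashed line marks the median of all genes tested (-0.01).

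Other lists moved both ways. Perivascular and alternatively activated macrophage genes were higher in 9 and lower in 7 of 20 tested members (median 0.35). Arg1, described above, had the largest rise and Ms4a6d the next (3.16 ± 0.18), and Mrc1, the mannose receptor, was at 515, 418, 541 and 546 CPM with LPS and 452, 452, 464 and 415 CPM without (adjusted p = 0.448). Among genes of disease-associated microglia, 10 of 29 tested members rose and 7 fell, with a median of 0.04. Spp1, Lgals3 (galectin 3, 1272, 939, 926 and 1824 CPM against 121, 144, 129 and 265 CPM, 2.90 ± 0.27) and Gpr84 (2.84 ± 0.27), a receptor for medium-chain fatty acids, led the rises. Clec7a, Igf1 and Trem2 led the falls, so the list did not move as one. Lysosomal genes were lower in 6 and higher in 2 of 38 tested members (median -0.32), where 9.78% and 9.27% of all genes tested were called lower and higher. Ctsl rose by 1.21 ± 0.18, Gla by 1.31 ± 0.30, Lipa fell by 1.5 ± 0.18, and Ctsd stayed short of the threshold at -0.87 ± 0.16.

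Regulators of transcription changed in both directions, with 8 higher and 9 lower among 33 tested myeloid factors (median 0.30). Cebpb, a driver of inflammatory and acute-phase genes, went from 245, 282, 335 and 352 CPM to 1062, 1142, 829 and 2396 CPM (2.14 ± 0.27, adjusted p = 3.00e-06), with mouse 4 far above the other LPS mice. Batf and Ets2 rose by 1.70 ± 0.21 and 1.74 ± 0.24. Mef2c, a factor of the microglial programme, fell from 347, 242, 310.1 and 326 CPM to 62.7, 54.2, 78.0 and 32.1 CPM (-2.33 ± 0.21, adjusted p = 4.30e-08), and the clock repressors Nr1d1 and Nr1d2 fell by 2.74 ± 0.34 and 1.97 ± 0.28. The hour of sampling is not given for either group. Spi1 (PU.1), the master regulator of myeloid cells, was at 986, 747, 991 and 899 CPM with LPS and 617, 677, 783 and 599 CPM without (adjusted p = 0.0593).

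Immediate early genes, which brain dissociation also raises, were higher in 3 and lower in 3 of 20 tested members (median -0.38), and without LPS mouse 4 2 and 6 were called. Over all genes tested the shares were 9.27% higher and 9.78% lower. Fosl2 and Ier3 rose by 1.64 ± 0.28 and 1.45 ± 0.19, Dusp1 was at the threshold (1.00 ± 0.20, and 0.79, 0.98 and 0.95 without LPS mouse 4, control mouse 5 and control mouse 7), and Atf3 and Fosb fell by 2.10 ± 0.22 and 1.61 ± 0.23. Fos was at 2525, 2729.9, 2765 and 4249 CPM with LPS and 3971, 4625, 3828 and 4031 CPM without (adjusted p = 0.0733).

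Of 13 tested p53 targets 3 rose and 1 fell (median 0.23), and leaving out each library in turn gave 3 to 5 higher members. Over all genes tested 9.27% were called higher and 9.78% lower. Cdkn1a (p21), which stops the cell cycle, went from 163, 121, 159 and 150.1 CPM to 1086, 1080.1, 833 and 1016 CPM (2.73 ± 0.19, adjusted p = 9.26e-10), with Ddit4 and Trp53inp1 as the other risers and Sesn1 as the fall. Bax, the death effector, was at 304, 269.7, 266 and 493 CPM with LPS and 191, 163, 164 and 167 CPM without (0.92 ± 0.20), and Mdm2, the target that is most particular to p53, at 101, 87.9, 84.4 and 78.8 CPM and 109, 109, 104 and 77.8 CPM (-0.18 ± 0.18, adjusted p = 0.453). Of 39 cell cycle genes 10 could be tested, the other 29 being too low, and of these Ccnd3 (1.89 ± 0.21) and Cdt1 (1.47 ± 0.32) rose and Ccnd1 fell by 1.34 ± 0.18 (median 0.11). Ribosomal proteins were called in 1 of 42 tested members, Rps24 (-1.04 ± 0.24), which was lower, and 0 were higher (edgeR; 4 at an unadjusted p under 0.05 whatever the fold, 0 by DESeq2 and 0 by limma), with a median of -0.18. Its call was lost without LPS mouse 2 or 4 or without control mouse 6, 7 or 8, at log2 fold changes of -0.88, -0.96, -0.97, -0.99 and -0.94.

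Transcripts that monocytes carry rose in the engrafted libraries although the gate was Ly6C/G-negative. The 9 monocyte markers summed to 2622, 1958, 1875 and 1515 CPM with LPS and 467, 509, 479 and 567 CPM in controls, against 37.1 to 93.7 CPM in challenged and 65.4 to 157 CPM in unchallenged host microglia. Of the 9, 7 rose. Ly6c2, the gene of the Ly6C antigen itself, went from 24.3, 36.4, 40.2 and 22.2 CPM to 853, 859.8, 702 and 429 CPM (4.42 ± 0.27, adjusted p = 2.02e-10), and Plac8 from 30.4, 10.4, 23.5 and 20.4 CPM to 619, 391, 385 and 210.1 CPM (4.04 ± 0.31, adjusted p = 3.91e-09). The chitinase-like gene Chil3 rose by 3.05 ± 0.28 and the matrix genes Vcan and Fn1 by 2.98 ± 0.39 and 2.44 ± 0.31. F13a1 rose by 2.02 ± 0.24. Ccr2 fell, as given above, and Nr4a1 had a log2 fold change of 0.37 ± 0.19 (not called). The marker sum of the graft rose in each LPS mouse above each control, and whether cells newly come from the blood entered the gate or resident engrafted cells raised these genes was not tested. Each rise described for engrafted cells is a rise of the sorted population as a whole.

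Neutrophil markers did not rise in sum. The 12 genes summed to 507, 49.4, 406 and 449 CPM with LPS and 310.2, 563, 1277 and 276 CPM without, groups that overlapped. In host libraries of the same mice they summed to 9.52 to 15.6 CPM with LPS and 0 to 2.34 CPM without. Ly6g was listed at no more than 2.92 CPM in any engrafted library. Unlike the sum in the graft, Mmp8, a collagenase of neutrophils, rose there from 1.01, 0, 0 and 0 CPM to 40.7, 24.1, 24.3 and 17.5 CPM (3.25 ± 0.38, adjusted p = 1.17e-06). Choroid plexus markers ranged from 434 to 1342 CPM with LPS and from 339 to 2341 CPM without. Sums for neurons (8.76 to 69.3 CPM over the 8 libraries), astrocytes (17.5 to 76.2 CPM), endothelial cells (6.70 to 49.7 CPM) and T and NK cells (2.56 to 40.9 CPM) were low. B cell markers summed to 15.7 to 29.2 CPM with LPS and to 33.5 to 76.2 CPM in controls, without overlap, with Cd79a and Pax5 at 0 and Cd79b, a chain of the B cell receptor, called lower (-1.24 ± 0.28, adjusted p = 0.00155). Oligodendrocyte markers summed to 86.7 to 96.3 CPM with LPS and to 161 to 177 CPM in controls, without overlap. The 6 pan-myeloid genes summed to 7035 to 7485 CPM with LPS and 8918 to 10297 CPM without. The 5 genes fixed for bone marrow-derived brain macrophages, mostly Apoe, summed to 45447 to 94888 CPM and 58766 to 83306 CPM. In host libraries these 5 summed to 3044 to 4659 CPM and 4012 to 7515 CPM. The 5 fixed for host microglia summed to 928 to 1248 CPM and 1619 to 2151 CPM in the graft. Their host sums were 1405 to 1980 CPM with LPS, which overlap the graft controls, and 5499 to 6991 CPM without. The part of other cell types in the results was not tested.

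**Figure D4:**
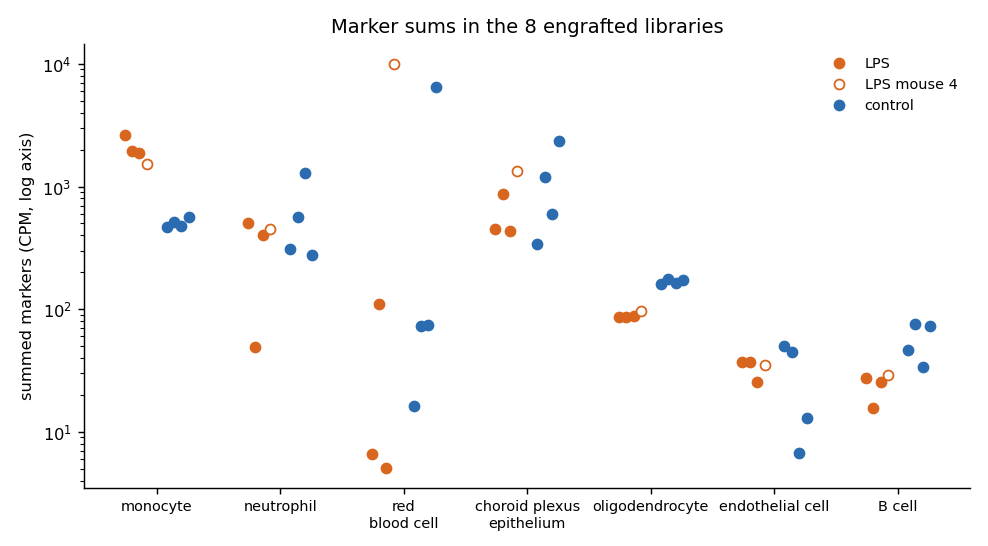
Summed CPM (log axis) of 7 marker lists in each of the 8 engrafted libraries, orange for the LPS mice, blue for the controls and an open circle for LPS mouse 4. The monocyte sum is higher in each LPS mouse than in each control, the neutrophil sums overlap, and the red blood cell sum stands out in LPS mouse 4 and control mouse 8.

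The question for the second comparison was where engrafted cells and host microglia of the same mice answered LPS differently. The interaction of population and challenge, tested on all 16 libraries, compares the log2 changes with LPS and not the levels. It was called for 209 of 8847 genes (2.36%) in the direction of a higher log2 change in engrafted cells and for 212 (2.4%) in the other direction. Of the 705 genes that rose in engrafted cells, 133 had a called larger change there than in host microglia and 12 a called smaller one. Of the 744 that fell, 68 had a called larger fall and 4 a called smaller fall. These genes were picked for their change in engrafted libraries that also enter the interaction, and such a choice favours larger changes there. The 2 splits therefore do not show which population answered more. Of the 606 risers that could also be tested in host microglia, 310 were called higher there too, out of 512 called higher in the host among genes tested in both. For falls the shared genes were 389, out of 684 in engrafted cells and 608 in the host. Both populations came from the same animals, so these counts are not independent.

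Some of the acute-phase genes rose more in engrafted cells. Of 20 tested acute-phase and granule genes, 5 had a called interaction toward a higher log2 change in engrafted cells and 2 toward a lower one. Over all genes these shares were 2.36% and 2.4%. The C-type lectin receptors had 2 in each direction among 15 tested members. Saa3 rose in host microglia too (2324, 2948, 752 and 811 CPM with LPS, 35.4, 52.9, 52.2 and 138 CPM without), and the change in engrafted cells was larger by 3.33 ± 0.52 on the log2 scale (adjusted p = 1.34e-04). Hp was at 26.0, 3.91, 17.9 and 22.4 CPM in challenged and 4.42, 4.81, 3.12 and 12.1 CPM in unchallenged host microglia, and its interaction was 5.46 ± 0.85 (adjusted p = 1.32e-04). Arg1 was at 12.5, 3.91, 9.52 and 6.99 CPM in the host with LPS and 1.47, 0, 0 and 4.04 CPM without, few reads on both sides, and its interaction was 4.68 ± 1.30 (adjusted p = 0.0305). That call was lost without control mouse 6 of the graft or without host control 5 or 8 (adjusted p = 0.0517, 0.0598 and 0.594). Ccl5, Pirb, Isg15 and Irf7 also rose more in engrafted cells (interactions of 2.76 ± 0.48, 2.18 ± 0.30, 1.79 ± 0.43 and 1.70 ± 0.28), whereas for Tnf, Cxcl2 and Spp1 the interaction was not called (log2 differences of -0.17, 0.50 and 1.15). Without mice 4 and 8 the difference of Spp1 was 1.75 and was called (adjusted p = 0.0143). Cdkn1a did not rise in host microglia (host log2 fold change -0.20 ± 0.18) and had an interaction of 2.92 ± 0.26 (adjusted p = 1.81e-08), and Lgals3 went the same way (2.65 ± 0.43).

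For other genes the host answered and, on the log2 scale, the graft did so less or not at all. Gpr65, a proton-sensing receptor, rose in host microglia by 3.64 ± 0.17 on the log2 scale and was at 375, 265, 394 and 155 CPM with LPS and 568, 360.2, 458 and 434 CPM without in engrafted cells (interaction -4.24 ± 0.32, adjusted p = 1.43e-09). Lilrb4a, Tlr2, Cd72 and Cp showed the same order, with interactions of -2.73 ± 0.24, -1.67 ± 0.36, -2.04 ± 0.44 and -1.62 ± 0.38. In engrafted cells Cd72 had a log2 fold change of 0.75 ± 0.28, which was not called. Without LPS mouse 4 and control mouse 8 it was 1.10 and was called. Nfkbiz, an inducible NF-kappaB cofactor, rose by 1.26 ± 0.14 in host microglia and had a log2 fold change of -0.43 ± 0.20 in engrafted cells (interaction -1.70 ± 0.25, adjusted p = 8.34e-05). Several of these genes started higher in the graft. Means without LPS were 455 CPM in the graft and 30.5 CPM in the host for Gpr65, and 361 and 175 CPM for Tlr2. For Cd72 they were 135 and 60.6 CPM, and for Nfkbiz 414 and 236 CPM. The part of the starting level in these interactions was not tested. Msr1 rose in both, from host controls of 4.42, 2.89, 13.2 and 15.1 CPM, and less in engrafted cells by -2.31 ± 0.33. Its mean with LPS was 654 CPM in engrafted cells and 489 CPM in the host. Marco, a scavenger receptor, was listed at 5.5, 1.2, 0 and 0 CPM with LPS and at 0 in the 4 controls of the graft and was too low to be tested there, while host microglia held 208, 255, 33.3 and 21.0 CPM with LPS.

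Among the falls, the loss of Cx3cr1 was larger in engrafted cells (interaction -2.31 ± 0.25, adjusted p = 7.76e-07), with host microglia at 1498, 1236, 2071 and 1722 CPM with LPS. Tgfbr2 (-1.18 ± 0.22), Clec7a (-1.77 ± 0.35) and H2-Eb1 (-1.96 ± 0.41) also fell more there. Gpr34, Olfml3 and Hpgd fell in both populations (host log2 fold changes -3.48 ± 0.26, -2.51 ± 0.16 and -3.09 ± 0.21), without a called interaction. By their means, P2ry12 and Tmem119 fell more in the host. P2ry12 went from 2295 to 447 CPM there and from 641 to 230 CPM in the graft, Tmem119 from 3098 to 964 CPM and from 1193 to 877 CPM. Of 32 tested homeostatic microglia genes, 3 had a called interaction toward a higher log2 change in engrafted cells and 2 toward a lower one. Over all genes these shares were 2.36% and 2.4%. Cmah was at 0, 0, 1.19 and 0 CPM in challenged and 0, 0, 0.779 and 0 CPM in unchallenged host microglia, so its fall could be measured in the graft alone. In 5 genes, named here after their values were seen, both populations were called in opposite directions. St3gal5, a sialyltransferase that starts ganglioside synthesis, rose in engrafted cells by 2.17 ± 0.28 and fell in the host (-1.87 ± 0.18, interaction 4.05 ± 0.31). Ceacam1, Eva1b and Cdk2ap2 went the same way (3.29 ± 0.38, 2.92 ± 0.32 and 2.74 ± 0.29), and Ero1lb the other (-2.56 ± 0.43).

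**Figure D5:**
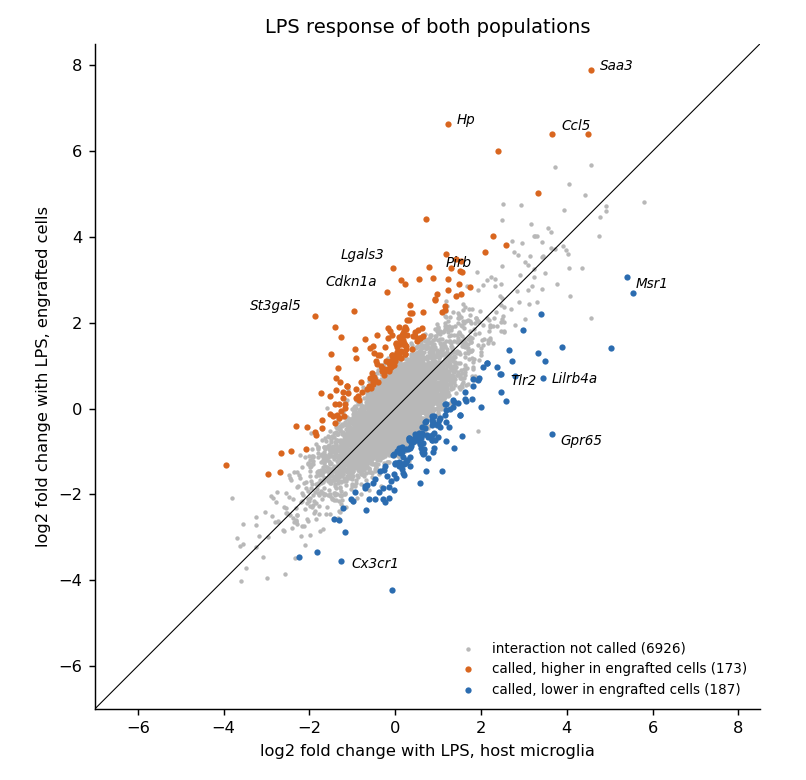
Log2 fold change with LPS in host microglia (x axis) against that in engrafted cells (y axis) for the 7286 genes tested in both populations. Orange (173) and blue (187) points are genes whose interaction was called in the direction of a higher or a lower log2 change in engrafted cells. Grey points are the rest, and the diagonal marks equal changes. Called genes lie away from the diagonal, and most other genes lie along it.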

How the data were processed

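The 4 LPS and 4 control libraries of engrafted cells were compared, with the 8 host libraries for the interaction. Per the methods and the labels, the authors sequenced MARS-seq-derived libraries, which capture polyadenylated RNA by its 3′ end, mapped reads to mm9 (NCBI37), kept unique matches and counted them with HOMER on the exons of 1 RefSeq transcript per gene, sense strand. The processing notes name HISAT 0.1.5. The deposited values are these raw read counts. No column was left unassigned to a sample.

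Counts were read as deposited in R 4.3.3 and tested with edgeR 4.0.16. Its filter took out low genes (minimum count 10, minimum total 15). After TMM scaling, each gene had its quasi-likelihood test, adjusted by Benjamini-Hochberg across every gene tested. Calls needed a change of over 1 on the log2 scale with an adjusted p under 0.05. Fitted values used a prior count of 2. The SE is the size of the log2 change over the root of F, and folds against groups with 3 reads or fewer in every library were computed against 3 reads per library. Depth sets the precision: the engrafted libraries held 395283 to 960725 reads on genes. Each test was checked on simulated counts. Host and graft libraries of a number came from 1 mouse, and after removal of group means their Pearson r was 0.140, 0.0163, 0.207, 0.122, 0.0229, -0.0306, 0.0482 and 0.0817 for mice 1 to 8. The main comparison is between different mice and has no pairs.

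Named genes are the 15 per direction with the largest change among called genes of at least 50 CPM whose groups did not overlap, genes the paper names for LPS, up to 3 called members per direction of each gene list with its most abundant uncalled members, the 5 most abundant genes per group, and the 5 per direction with the largest bound. Other names complete a count or were chosen for their values or their textbook role. The comparison, the 28 gene lists and the 13 marker lists were chosen with earlier results of these data known. Some genes are not reported here. Promoters were read from NCBI37 at the deposited starts with Python 3.11.15.

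Alternatives were RLE factors, library totals, no filter, a minimum of 10 reads per library, a single fit of all 16 libraries, DESeq2 1.42.0, limma 3.58.1 on the study's log2 scale, unadjusted p, the mouse as a replicate block for the interaction, and leaving out each library. Leaving out LPS mouse 4 with control mouse 8, or both populations of mice 4 and 8, was added after seeing the data.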

Additional observations from a re-analysis of the deposited data

Results flagged for a closer look

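In 31 of 408 gene and group pairs examined among the engrafted libraries, 1 library lay farther from the other 3 than Dixon's 95% limit allows. Chance gives about 1 in 20 such groups. LPS mouse 4, the library with the fewest reads, held 11 of them, 10 as the highest of its group. LPS mouse 2 was the lowest for S100a9 (2.41 CPM). LPS mouse 3 was the highest for Hpgd (40.9 CPM). LPS mouse 3 was the lowest for Cdt1 (15.4 CPM), Fth1 (15107 CPM) and Isg15 (307 CPM). LPS mouse 4 was the highest for Apoe (93350.2 CPM), Bax (493 CPM), Bst2 (2002 CPM), C1qb (28295 CPM), Ceacam1 (102 CPM), Cox5a (496 CPM), Cox5b (251 CPM), Dusp1 (4474 CPM), Fos (4249 CPM) and Lyz1 (61.3 CPM). LPS mouse 4 was the lowest for Slc39a14 (29.2 CPM). Control mouse 5 was the highest for Bax (191 CPM), Il18rap (2.03 CPM), Mmp8 (1.01 CPM) and Vcan (2.03 CPM). Control mouse 5 was the lowest for Lilrb4a (659 CPM) and Rps24 (377 CPM). Control mouse 6 was the highest for Sphk1 (1.73 CPM). Control mouse 6 was the lowest for Hacd4 (76.2 CPM). Control mouse 7 was the highest for Camp (156 CPM), Csf1r (5176 CPM) and Sgk1 (555 CPM). Control mouse 8 was the highest for Ccl6 (109 CPM), Cxcl3 (1.85 CPM) and Lgals3 (265 CPM). Control mouse 8 was the lowest for Gla (11.1 CPM). The values of Cxcl3, Il18rap, Mmp8, Sphk1, Vcan and S100a9 given here rest on 3 reads or fewer.

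The LPS response of 25 genes named above differed between engrafted cells and host microglia by the interaction test in edgeR, over 16 libraries. The difference of the log2 fold changes, engrafted minus host, was positive for Hp (5.46), Arg1 (4.68), St3gal5 (4.05), Saa3 (3.33), Ceacam1 (3.29), Eva1b (2.92), Cdkn1a (2.92), Ccl5 (2.76), Cdk2ap2 (2.74), Lgals3 (2.65), Pirb (2.18), Isg15 (1.79) and Irf7 (1.70). It was negative for Gpr65 (-4.24), Lilrb4a (-2.73), Ero1lb (-2.56), Msr1 (-2.31), Cx3cr1 (-2.31), Cd72 (-2.04), H2-Eb1 (-1.96), Clec7a (-1.77), Nfkbiz (-1.70), Tlr2 (-1.67), Cp (-1.62) and Tgfbr2 (-1.18). The value of Arg1, with few reads in the host, lost its call without host control 5, graft control 6 or host control 8 (4.68, 4.56 and 4.27), and kept its sign.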

How the results depend on the processing

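The 705 genes called higher and 744 lower became 722 and 727 with RLE factors, 622 and 852 with library totals, 790 and 971 with all 16 libraries in 1 fit, 795 and 824 by DESeq2, 774 and 576 by limma. Unadjusted p gave the 705 and 744 again. Without a filter they were 973 and 1195, and with at least 10 reads in every library 362 and 393, where 4754 genes were tested. Leaving out libraries gave 682 to 807 and 727 to 928. The interaction calls, 209 and 212, were 235 and 195 with RLE factors, 175 and 242 with library totals, 251 and 206 by DESeq2, 130 and 104 with at least 10 reads in every library, 228 and 237 with the mouse as a replicate block, and 161 to 236 and 130 to 234 when libraries were left out. The second count was 130 without the host library of LPS mouse 3, 141 without that of control mouse 8 and 234 without the graft library of LPS mouse 4. The block changed the call of no interaction named in the report. Of 201 log2 fold changes checked, 184 kept direction and call under every alternative, 3333 values in all, of which 44 lost and 18 gained a call and 2 changed direction. Both changes of direction were those of Ngp, which was not called at -0.32 and ranged from -0.74 to 0.32 when libraries were left out, positive without LPS mouse 2 or control mouse 7. The cause was not tested. Among lists with 3 or more called members in a direction, leaving out 1 library moved the interferon-gamma-linked GTPases (5 higher, 2 to 5), oxidative phosphorylation subunits (3 higher, 1 to 6), p53 targets (3 higher, 3 to 5) and immediate early genes (3 lower, 2 to 6) by over 1.5 times. The lower depth of LPS mouse 4, where 3 reads are worth 8.76 CPM, limits what can be said of low genes there.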

Other observations

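Further genes with large changes in engrafted cells belong to none of the groups described above. Amica1 (JAML), an adhesion molecule of leukocytes, was at 845, 766, 778 and 665 CPM with LPS and 4.05, 8.66, 13.4 and 13 CPM without (5.99 ± 0.27 on the log2 scale, adjusted p = 5.14e-12 by edgeR's quasi-likelihood test). Ltb4r1, the receptor for the chemoattractant leukotriene B4, was at 506, 319, 235 and 604 CPM against 3.04, 8.66, 10.1 and 13 CPM (5.25 ± 0.34). Slfn4, a member of the Schlafen family that interferon induces in macrophages, reached 290.4, 255, 166 and 146 CPM with all controls at 3 reads or fewer, at least 45.6-fold higher. Edn1, the gene of the vasoconstrictor endothelin 1, and Sphk1, which makes sphingosine 1-phosphate, also started from 3 reads or fewer in each control and were at least 27.5-fold and 16.7-fold higher, with 178, 249, 72.9 and 17.5 CPM and 107, 126, 57.6 and 23.3 CPM. In both, LPS mouse 4 lay lowest.

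Among the falls, Tmem52, a transmembrane protein of little known function, went from 172, 197, 275 and 221 CPM to 9.90, 6.02, 15.4 and 23.3 CPM (-3.86 ± 0.26, adjusted p = 7.31e-10). Col27a1, a fibrillar collagen, went from 115, 102, 85.5 and 102 CPM to 7.70, 9.63, 10.2 and 2.92 CPM (-3.23 ± 0.25), and Gal3st4, a sulfotransferase for galactose, from 255, 222, 251 and 234 CPM to 12.1, 15.7, 34.5 and 67.1 CPM (-2.99 ± 0.30). Fcrl1, a receptor known from B cells, fell by 2.98 ± 0.28, and the B cell marker Cd79b fell as well, as given above. Tmem52, Col27a1, Gal3st4 and Fcrl1 fell in the host as well, by host log2 fold changes of -2.56 ± 0.26, -3.24 ± 0.22, -2.97 ± 0.18 and -2.19 ± 0.25.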
